A study of Mus musculus with 122 samples.

Results

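The Hox cluster genes were taken as the genes of the RNA-seq table whose symbol is Hoxa, Hoxb, Hoxc or Hoxd followed by a number, without antisense transcripts. There are 39 of them among 52459 listed genes. In GRCm38, 11 lie in the Hoxa cluster on chromosome 6 between 52155590 and 52260880, 10 in Hoxb on chromosome 11 between 96194316 and 96368256, 9 in Hoxc on chromosome 15 between 102921103 and 103036852, and 9 in Hoxd on chromosome 2 between 74668310 and 74765142. Genes of Hoxa are on the minus strand and those of the other clusters on the plus strand.

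All cells were E14Tg2a, a mouse embryonic stem cell line, grown without feeders in serum with LIF and 2i. Both Ctcf alleles carry an auxin-inducible degron, the plant protein Tir1 is expressed from Rosa26, and a doxycycline-inducible transgene with a FLAG tag and mRuby2 sits at Tigre, so every control carries these alleles too. Each line is a selected clone, and the line cannot be told apart from the clone. Cells were untreated (U), given IAA (an auxin) at 500 µM to degrade endogenous CTCF (I), given Dox at 1 µg/ml to induce the transgene (D), or given both (ID). RNA-seq was made for the transgenes CTCF, CTCFL, LCL (CTCF zinc fingers between the CTCFL N and C termini) and CLC (CTCFL zinc fingers between the CTCF termini). There were 38 libraries, with 2 or 3 for each line and treatment. FLAG ChIP-seq was also made for CLL and LLC, which are CTCFL with the CTCF N terminus and the CTCF C terminus, respectively. The sample labels name 24 h of treatment for RNA-seq, for RAD21 and for FLAG of CTCF, CTCFL, LCL and CLC, but 48 h for FLAG of CLL and LLC and for the RNase and mock samples, so transgenes compared by their sites differ in labelled time. The treatment protocol names 2 days for RNA and ChIP-seq and 4 days for Hi-C, although the labels of treated Hi-C samples of CTCF, CTCFL, LCL and CLC name 24 h.

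Hox genes encode homeodomain transcription factors that give cells along the body axis their positional identity. Within a cluster, genes at one end (paralog group 1) are used early and anteriorly and those at the other end (group 13) late and posteriorly. In embryonic stem cells the clusters are largely silent and covered by Polycomb repressive complexes, and retinoic acid, Wnt signals and Cdx factors open them during differentiation. CTCF, a zinc finger protein, stops cohesin at its binding sites and so sets borders of chromatin domains, and sites of this kind inside the clusters are known to separate active from Polycomb-covered genes in motor neurons. CTCFL (BORIS) is its testis paralog, with similar zinc fingers and unrelated termini.

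Sequencing depth ranged from 6847072 to 49716771 reads in the 36 libraries whose whole reads could be recovered, with a median of 26013021, and replicate 3 of CTCFL D was the shallowest. Values below are normalized counts, which are gene counts divided by a size factor per library. Their sums over all genes were lower in every library of the CTCF and CTCFL lines than in those of LCL and CLC, so levels are compared within a line. The 8 stem cell markers (such as Pou5f1, Nanog and Sox2) summed to 86575 to 280354 per library, against 127 to 531 for 6 mesoderm and primitive streak markers. Ctcfl RNA was 193 to 225 in U and 7569.5 to 9398 in D of the CTCFL line. In the CTCF line, Ctcf RNA was 4691 and 4712 in U, 3550 to 3850 in D and 3910 to 4142 in ID, so the RNA does not show the induction, and these are called the libraries labelled D and ID. IAA acts on the protein, so Ctcf RNA does not check the depletion.

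The first question was where the transgenic proteins sit at the 4 clusters. A site is a region with a FLAG peak in both replicates, and each cluster was taken with 20 kb on either side. Over all transgenes and treatments, the sites merged into 41 regions, of which 6 were at Hoxa, 19 at Hoxb, 5 at Hoxc and 11 at Hoxd, numbered here in genome order. Of these, 15 held sites of proteins with CTCF zinc fingers alone (CTCF and LCL), 8 held sites of proteins with CTCFL zinc fingers alone (CTCFL, CLC, CLL and LLC) and 18 held both. A match to the CTCF motif within 50 bp of the summit was found in 3 of the 15, 0 of the 8 and 11 of the 18. Over the genome, 60.1% of CTCF ID sites, 30.7% of CTCFL D sites and 17.1% of CTCFL D sites without a CTCF ID site had a match. The motif matrix was estimated on CTCF ID sites. Among the 8 regions, Hoxb regions 3, 6, 13 and 19 held no CTCFL site, so the 0 cannot speak for CTCFL sites.

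The matched sequences of these 14 regions, which show where the proteins share or differ in sites, are given from GRCm38, 5′ to 3′ on the strand of the match, with the 14 positions of the motif in capitals. The first 7 lie in regions with both kinds of protein, the next 3 in regions bound by CTCF and LCL alone, and the last 4 in regions where CTCFL reached a −log10 q in D at or above that of CTCF or where CTCF ID had no site. Hoxb region 17 and Hoxc region 2 were chosen after their values were seen.
Hoxa region 1 (just upstream of the Hoxa5 start, chr6:52204649-52204678, minus): cccagtctCCAGCGGGTGGCGCtcgagtcc
Hoxa region 3 (Hoxa7 UTR at its start, chr6:52221799-52221828, minus): agaaaattCCAGGAGATGGCAGtgtggctc
Hoxa region 4 (Hoxa10 UTR, chr6:52240531-52240560, minus): cgcagccgCCACGAGATGGCGCactcccga
Hoxb region 2 (between Hoxb13 and Hoxb9, chr11:96223997-96224026, minus): cacagaggCCAGAAGAGGGCGCcattttta
Hoxb region 4 (between Hoxb13 and Hoxb9, chr11:96235096-96235125, minus): tctcgcggCCGGCAGGGGTCACtgtgtggc
Hoxb region 10 (between Hoxb9 and Hoxb8, chr11:96278940-96278969, plus): cacagtggCCGCTAGATGGCATccttgctc
Hoxd region 11 (Hoxd3 and Hoxd4 intron, chr2:74715913-74715942, plus): agctttgtCCAGGAGGAGGCGCtgtaggac
Hoxb region 5 (between Hoxb13 and Hoxb9, chr11:96240412-96240441, minus): ctagacagACACTAGAGGGTGCtcggcgct
Hoxb region 15 (Hoxb5os intron, just upstream of the Hoxb5 start, chr11:96303237-96303266, plus): gtcaatcgCCGGGAGGTGGCGCgctctgct
Hoxd region 4 (between Hoxd13 and Hoxd12, chr2:74673168-74673197, minus): ccaaacgcCCAGGAGATGGCGAgcgtgctc
Hoxb region 9 (Gm53 noncoding exon, chr11:96261743-96261772, minus): gcgaccgaCCTCTAGGCGGCGCcctggcgt
Hoxb region 17 (Hoxb3 coding exon, chr11:96346185-96346214, minus): gggaggggCCGGCAGGGGGCGGcagcggat
Hoxc region 2 (between Hoxc12 and Hoxc11, chr15:102943448-102943477, minus): cgctctggCCAGCAGGGGTCATcccgtcct
Hoxd region 1 (Evx2 coding exon, chr2:74655882-74655911, plus): ccgagctaCCGCTGGGGGGCGCcccagccg

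Transgenic CTCF in place of the endogenous protein (CTCF ID) had 25 sites at the clusters, with 6 at Hoxa, 9 at Hoxb, 3 at Hoxc and 7 at Hoxd. Of these, 12 had a motif match, which is 48.0% (exact 95% binomial interval 27.8 to 68.7%), against 60.1% of all 30317 CTCF ID sites. The threshold is set on control windows of the same width, so it changes with the window. With 25 bp the share was 24.0% at the clusters and 35.5% over all sites, and with 250 bp it was 16% and 60.5%. The most significant site lay just upstream of the Hoxc10 start (Hoxc region 3), with a −log10 q of 128 and 119 in the replicates of CTCF ID, and its best motif score stayed below the threshold. By replicate 1, Hoxb region 5 came next with 114 and 120, then Hoxa region 1 with 108 and 91.6, Hoxa region 3 with 103 and 94.4, and Hoxb region 4 with 99.5 and 91.3. The 3 matches at Hoxa were all on the minus strand, which is the strand of the Hoxa genes.

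Of the 25 CTCF ID sites, 24 held a site of LCL in D and 24 in ID, which is 96% (exact 95% interval 79.6 to 99.9%) against 71.2% and 78.9% of all CTCF ID sites. CTCFL D sites overlapped 11 of the 25, which is 44% (exact 95% interval 24.4 to 65.1%), beside 46.7% over all CTCF ID sites. With an overlap of more than 66% of both sites the share was 20%, beside 32.2% over all CTCF ID sites. CLC ID sites overlapped 13 (background 47.7%) and CLL ID sites 10 (background 33.6%), but LLC ID sites only 1 (background 7.3%). The interval of the CTCFL share holds the share of the whole genome, and that of the LCL shares lies above it, for LCL ID only just (79.6% against 78.9%). These intervals treat neighbouring sites as independent, several overlaps were computed, and site significance was not matched to the background. They therefore do not show an excess of LCL at the clusters.

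Hoxb region 5 and Hoxd region 4 show the sites that proteins with CTCFL zinc fingers lacked. At Hoxb region 5 the −log10 q was 43.1 and 51.2 in CTCF D, 56.9 and 49.3 in LCL ID, and no site of CTCFL, CLC, CLL or LLC was found. Hoxd region 4 had 52.8 and 55.6 in CTCF D and 67.2 and 54.1 in CTCF ID, but 3.87 and 8.76 in LCL D and 15.8 and 26.3 in LCL ID. Hoxb region 15, at the Hoxb5 promoter, had 94.1 and 59.3 in CTCF ID and 72.2 and 66.6 in LCL ID. Hoxa region 2, between Hoxa6 and Hoxa7, and Hoxc region 5, just upstream of a Hoxc5 start, were likewise bound by CTCF and LCL alone, with 85.9 and 55.0 and with 50.9 and 42.1 in CTCF ID, and had no motif match.

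Other regions were shared, with lower values in CTCFL D than in CTCF ID. Protein and treatment both differ in this comparison, since endogenous CTCF was present in CTCFL D and removed in CTCF ID. The 2 cannot be told apart here. Hoxb region 4 had 99.5 and 91.3 in CTCF ID and 8.2 and 5.62 in CTCFL D. Hoxc region 4, between Hoxc9 and Hoxc8, had 87.8 and 49.9 against 5.18 and 3.76, and Hoxd region 10, between Hoxd9 and Hoxd8, 61.9 and 43 against 8.42 and 4.49. Hoxa region 4 had 52.9 and 43.8 against 10.3 and 15.0. CTCFL D thus had a site of lower significance at each of these 4 regions. Hoxb region 10 had 83.6 and 68.8 against 6.49 and 4.05, and Hoxd region 11 had 81.5 and 60.5 against 15.4 and 12.2. Hoxb region 2 with 35.5 and 34.8 in CTCF ID and Hoxb region 14 with 41 and 34.9 had no CTCFL D site, but a CTCFL ID site with 10.6 and 14.7 and with 4.55 and 5.11.

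Hoxb region 9, between Hoxb13 and Hoxb9, was bound by proteins with either kind of zinc fingers. It was the region bound by the most groups (10 of the 12 transgene and treatment groups). CTCFL D reached 47.6 and 36.4 there and CTCF D 21.4 and 27.2, and it was the only motif-bearing region with a CLC D site (18 and 15). In ID the values were 39.2 and 25.2 for CTCF, 45.1 and 33.3 for CTCFL, 48.9 and 47.3 for LCL, 41.3 and 61.1 for CLC, and 29.1 and 68.7 for CLL, and the ranges of CTCF and CTCFL overlapped. Hoxd region 1 in the Evx2 coding sequence had 32.6 and 31.2 in CTCFL D, 17.6 and 21.1 in CTCF D and 28.6 and 21.0 in CTCF ID. Hoxb region 17 in the Hoxb3 coding exon had 28.9 and 13 in CTCFL D, 3.25 and 10.6 in CTCF D and no CTCF ID site. Peak significance rises with the depth of a library, which is unknown here.

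CLC and CLL had more sites at the clusters when endogenous CTCF was removed, and CTCFL and LLC did not differ there by more than 1. CLC had 2 sites at the clusters in D and 14 in ID, and CLL 1 in D and 13 in ID. LLC had 4 and 5, all at Hoxb, and CTCFL had 19 in both treatments. CTCF had 27 and 25 and LCL 29 and 32. Over the genome the numbers of CLC sites were 7599 and 17876 and of CLL sites 1908 and 15633 in D and ID, so the whole peak lists differed in the same direction. LLC sites over the genome also rose, from 3305 in D to 6621 in ID, and CTCFL sites numbered 22294 and 25097. The few LLC sites at the clusters thus do not stand for LLC over the genome.

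**Figure D1:**
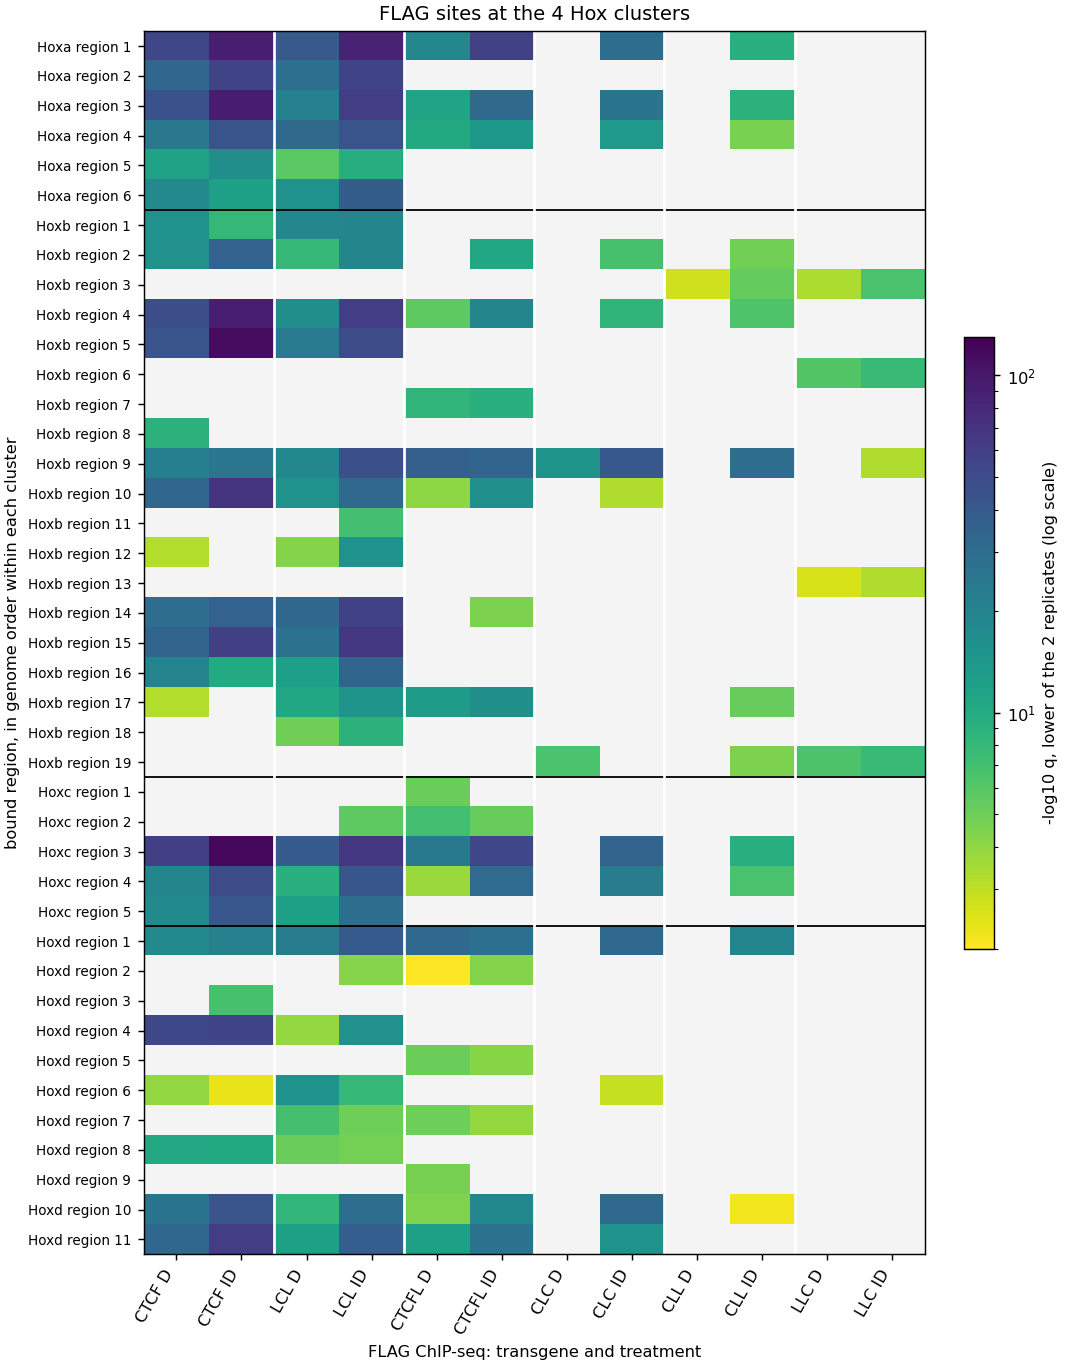
FLAG sites at the 4 Hox clusters, with the 41 bound regions in rows and the 12 transgene and treatment groups in columns. Colour is the −log10 q of the less significant replicate on a log scale, and pale cells have no site in both replicates. The CTCF and LCL columns are filled in almost the same rows, and the CLC and CLL columns fill in ID.

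RAD21, the cohesin subunit that CTCF stops, was read at the 25 CTCF ID sites from broad peak lists. A RAD21 peak of either replicate overlapped 14 of them in CTCF D (background over all CTCF ID sites 50.5%) and 17 in CTCFL D (background 46.8%). In ID the numbers were 5 for CTCF (background 9.24%), 4 for CTCFL (6.91%), 4 for LCL (6.5%) and 0 for CLC (2.11%), where the Clopper-Pearson interval of 0 of 25 reaches 13.7%. LCL D had 11 (28.7%) and CLC D 5 (14.9%). The replicates differ widely, since in CTCFL D replicate 1 overlapped 17 sites and replicate 2 overlapped 0, with 20467 and 238 peaks in the 2 lists. In ID, RAD21 was thus found at 5 or fewer of the 25 sites in every line, the CTCF line included. The lists of CTCF ID were shorter, with 8593 and 784 peaks against 22765 and 3756 in CTCF D. Fewer peaks in the whole list and less RAD21 at these sites cannot be told apart.

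RNase A treatment of permeabilized cells before crosslinking was compared with a mock treatment. CTCF ID kept 8 of 20 mock sites after RNase, beside 36.8% of all mock sites. Without replicate 2 of each group it kept 14 of 21, beside 72.5% of all mock sites in that setting. After RNase, replicate 2 listed 8740 peaks and replicate 1 listed 26051. CTCFL ID had 3 mock sites at the clusters, of which 0 were kept, beside 24.8% of all. Without replicate 2 of each group it kept 2 of 4, beside 52.4%. Replicate 2 of CTCFL ID listed 2556 peaks after RNase and 14848 after mock treatment. The CTCFL ID samples outside this experiment had 19 sites, so 3 mock sites are too few to read a loss.

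At the RNA level the genes of a cluster differed widely. Per kilobase of exon and over all 38 libraries, Hoxb9 was the highest with a mean of 217 normalized counts per kb, followed by Hoxc13 with 136. Hoxb13 had 73.1. In the Hoxd cluster Hoxd13 had 40.6 and Hoxd9 25, with ranges that overlap, and in the I libraries alone the means per kb were 33.7 and 34.4. Hoxb9, Hoxb13, Hoxc13 and Hoxd13 belong to the posterior part of the axis, but high levels were not limited to posterior genes. Hoxb7 (54.6), Hoxc4 (51.6) and Hoxa7 (45.4) lay above Hoxd13, and the posterior Hoxa13 had 7.94, Hoxa11 3.88 and Hoxd11 1.84. At the low end of the levels, Hoxd3 was at 0 in 32 libraries, Hoxa6 in 24 and Hoxb5 in 23, and Hoxb6, Hoxd4 and Hoxd12 in 17 each. Hoxb5, with the CTCF ID site at its promoter described above, had 0 to 7.49 normalized counts. Hoxa5, with such a site too, had 0 to 8.89 in U, but 46.4, 39 and 11.2 in D and 49.1 and 35.2 in ID of the CTCFL line. In I of that line Hoxa5 was 8.39 to 17.2, and it was not called there in D against U or in ID against I. Some genes share sequence with neighbours. In the annotation, Hoxa3 spans Hoxa4, Hoxa5 and Hoxa6, Hoxc5 spans Hoxc6, Hoxc8 and Hoxc9, and Hoxd3 overlaps Hoxd4, so reads of these genes can be assigned to one another. The strand setting of the counting is not given in the sources used here, so reads of antisense transcripts (Hoxb5os, Hoxb3os and others) cannot be told apart from those of the genes.

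The second question was how IAA, given to degrade endogenous CTCF, affects the clusters. Every line carries the degron, so an effect of IAA itself cannot be told apart from loss of CTCF. IAA was compared with no treatment in the 4 lines together, with the line as a term in the model. Of the 39 genes, 24 had a mean of at least 10 and were tested, and 8 of these rose by more than 1 on the log2 scale at an adjusted p under 0.01, while 0 fell. The background was 6.39% of all tested genes called higher and 6.03% called lower. The 8 were Hoxb8, Hoxb13, Hoxc8, Hoxc9, Hoxc12, Hoxd1, Hoxd8 and Hoxd9. The median log2 fold change of the 24 genes was 0.79, against 0.03 for all tested genes, and 19 of 24 were above 0. All I libraries lay above all U libraries within each of the 4 lines for 10 of the 24, beside 12.1% of all tested genes. A test of whether the effect of IAA differed between the lines called 0 of the 24 (background 11.3%), with unadjusted p values under 0.05 for 9 genes, among them Hoxa2, Hoxa4, Hoxa9, Hoxb9, Hoxc10, Hoxc11, Hoxc13 and Hoxd13.

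Hoxb13, the most posterior gene of its cluster and the one set apart from the others by a long intergenic stretch, gave the clearest separation. Hoxb13 had 86.1 to 141 normalized counts in the 9 U libraries, with a median of 107, and 209 to 397 in the 10 I libraries, with a median of 244. The groups did not overlap in any line or between lines. Hoxb13 rose by 1.22 on the log2 scale (SE 0.11, adjusted p = 3.36e-09). It was called in the CTCF, LCL and CLC lines, and in the CTCFL line the values were 141, 126 and 101 in U and 239, 232 and 240 in I. Its nearest CTCF ID site lay 4032 bp from its start and had no motif match.

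Hoxc8 and Hoxc9, which specify thoracic segments, had the highest fold changes of the clusters. Hoxc9 had 0 to 29.6 normalized counts in U, with a median of 8.84, and 28.5 to 87.8 in I, with a median of 53.7. Hoxc9 rose by 2.44 on the log2 scale (SE 0.32, adjusted p = 1.33e-06) and was called in each of the 4 lines, although 3 of these calls depend on single libraries, as given below for the lines. Hoxc8 had 0 to 10.8 in U, with a median of 3.42, and 4.08 to 39.9 in I, with a median of 15.7. Hoxc8 rose by 2.22 (SE 0.39, adjusted p = 4.37e-05). Both fold changes are on the log2(value + 1) scale, which can understate the change of low genes. Over the alternatives they ranged from 1.92 to 2.44 for Hoxc9 and from 1.34 to 2.49 for Hoxc8. Both genes lie within the span of Hoxc5. Within lines, Hoxc9 was 6.38 and 8.84 in U and 40.7, 53.4 and 67.9 in I of the CTCF line. In the CTCFL line it was 29.6, 19.8 and 29 in U and 77.4, 87.8 and 74.2 in I. The untreated level was thus higher in the CTCFL line, and the treated libraries stood above it in both. Hoxc9 was 0 and 5.56 in U and 28.5 and 37.2 in I of the LCL line, and 19.4 and 5.93 in U and 51 and 54 in I of the CLC line. Hoxc8 was 0 and 1.1 in U and 15.5, 10.2 and 15.9 in I of the CTCF line, and 10.8, 4.94 and 9.29 in U and 33.6, 39.9 and 22.6 in I of the CTCFL line. The LCL and CLC lines had lower Hoxc8 values after IAA, with 4.08 and 13.8, and 4.47 and 16.8, but above their untreated 3.42 and 1.23, and 0 and 3.56.

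Hoxc12, Hoxd1, Hoxd8, Hoxd9 and Hoxb8 made up the rest. Hoxd9 had 16.7 to 62.5 in U, with a median of 22.3, and 31.8 to 147 in I, with a median of 65.7. It rose by 1.27 (SE 0.20, adjusted p = 1.19e-05). The LCL line shows it with 17.1 and 16.7 in U and 73.4 and 51.8 in I. Hoxd8 had 16.7 to 66 in U and 35.6 to 160 in I, and rose by 1.02 (SE 0.18, adjusted p = 5.45e-05). Both did not overlap within any of the 4 lines. Hoxd1 had 1.14 to 31.4 in U and 6.20 to 53.4 in I (log2 1.27, SE 0.29, adjusted p = 0.000658), and its LCL and CLC libraries were all under 20. Hoxc12 had 9.12 to 58.1 in U and 18.4 to 82.3 in I (log2 1.11, SE 0.23, adjusted p = 0.000318). Hoxb8 differed between untreated lines, with 87.5, 26.7 and 36 in the CTCFL line against 10.6 and 7.73 in the CTCF line, and was 49.4, 93.8 and 39.8 in I of the CTCFL line (log2 1.03 over the lines, SE 0.27, adjusted p = 0.00218). Some of these calls lie at the fold limit. Hoxb8 fell under it without any 1 of 7 libraries (lowest log2 0.93 without replicate 2 of CTCF U), Hoxd8 without any 1 of 5 (lowest 0.93 without replicate 3 of CTCFL U), and Hoxc12 without replicate 2 of LCL I (0.99), and in these fits the adjusted p values stayed under 0.01. Hoxb8 also lost its call with TMM factors (log2 1.00, just under the limit), with a pseudocount of 5 (0.84), by DESeq2 (0.94) and by edgeR (0.92, adjusted p = 0.0175). With a pseudocount of 5, Hoxd1 (0.90), Hoxd8 (0.94) and Hoxc12 (0.96) fell under the limit too, and Hoxd8 did so with TMM factors (0.98).

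**Figure D2:**
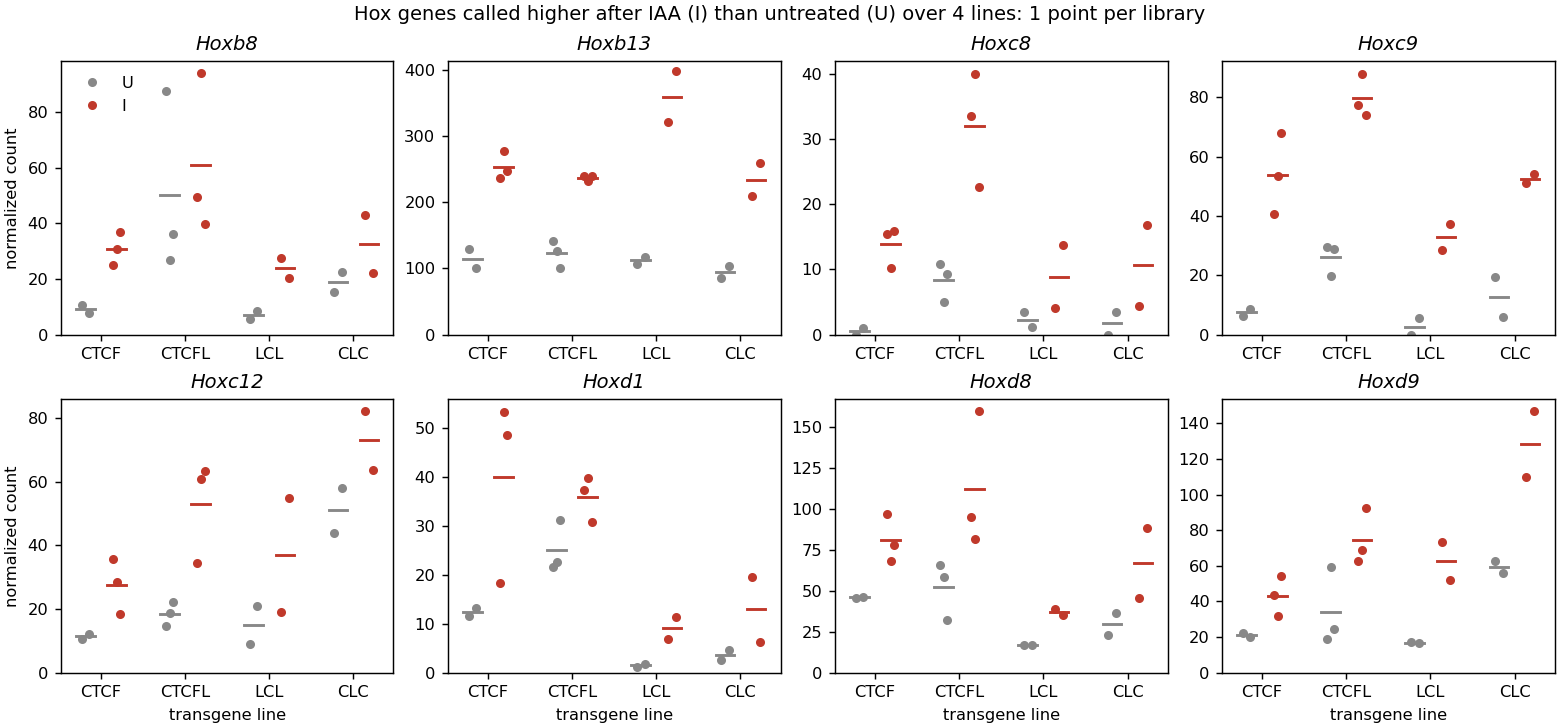
Normalized counts of the 8 Hox genes called higher after IAA, for the untreated (U) and IAA-treated (I) libraries of the 4 lines. Each point is a library and each bar the mean of its group. Hoxb13 is the gene whose I libraries (209 to 397) all lie above every U library (86.1 to 141).

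Of the 24 tested genes, 14 were higher at an adjusted p under 0.01 when no fold limit was set, of which 6 stayed under the limit (background for this rule 23.9%). Among these, Hoxb7 had a log2 fold change of 0.96 (adjusted p = 4.12e-06), Hoxc13 0.80 (adjusted p = 2.68e-06), Hoxb4 0.77 (adjusted p = 0.000163), Hoxa3 0.61 (adjusted p = 0.00164) and Hoxb9 0.50 (adjusted p = 8.50e-05). Hoxb7 in the LCL line was 41 and 40.1 in U and 78.0 and 82.5 in I, and in the CLC line 35.5 and 40.3 against 63.5 and 81.5. Hoxb9 in the CLC line was 649 and 649 in U and 932 and 1010 in I. In contrast, Hoxa4, Hoxa9, Hoxa10, Hoxc11 and Hoxd13 had log2 fold changes between −0.77 and −0.05, and Hoxa7 had 0.06, and none of the 6 was called. Hoxa4 in the CTCFL line was 40.4, 19.8 and 27.9 in U and 7.46, 6.99 and 9.96 in I (log2 −1.69, adjusted p = 0.0176), which misses the threshold although the groups were separate. In the LCL line Hoxa4, too low to test, was 6.84 and 6.79 in U and 2.91 and 0 in I.

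**Figure D3:**
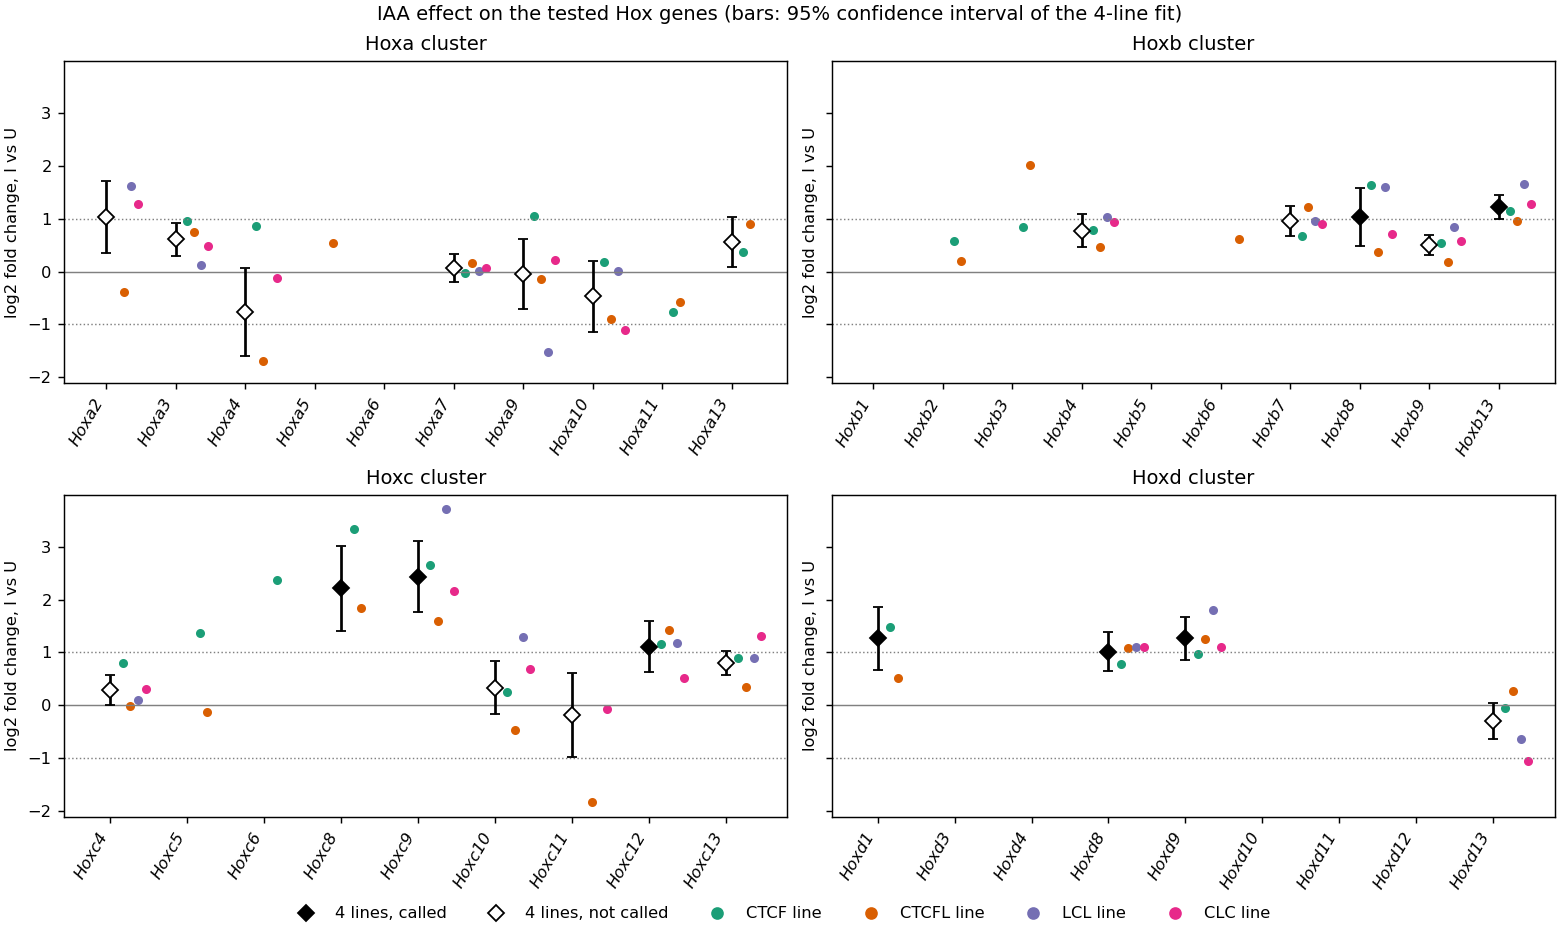
Log2 fold change of IAA-treated over untreated cells for the tested Hox genes, ordered by paralog number within its cluster. Diamonds are the fit over 4 lines with its 95% confidence interval, filled where called, and points are the single lines. Dotted lines mark the fold limit of 1, and genes without a symbol had a mean under 10.

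Within single lines, 7 of 27 tested genes rose in the CTCF line (background 5% higher, 5.92% lower), 2 of 30 in the CTCFL line (3.69% and 5.88%), 4 of 19 in LCL (4.25% and 5.34%) and 4 of 21 in CLC (6.7% and 6.1%). In the CLC line 1 gene also fell. In the CTCF line these included Hoxb8, Hoxb13, Hoxc6, Hoxc8, Hoxc9 and Hoxd1. Hoxc6 was 2.13 and 2.21 in U and 13.6, 10.2 and 26.0 in I (log2 2.37, adjusted p = 0.00108). In the CTCFL line Hoxb7, a trunk gene, was 43.1, 72.1 and 85.9 in U and 130, 166 and 160 in I (log2 1.22, adjusted p = 0.0008). All of these groups were separate. Hoxd13, which patterns the digits, fell in the CLC line, with 128 and 157 in U and 73.3 and 62.0 in I (log2 −1.06, adjusted p = 0.0051). Hoxc13 rose there, from 229 and 234 to 540 and 608 (log2 1.31, adjusted p = 9.64e-05). Calls of single lines are fragile with 2 or 3 libraries. In the CTCF line, Hoxb8 lost its call without any 1 of the 5 libraries (adjusted p up to 0.0769) and Hoxd1 without any 1 of 4 (up to 0.0559). There Hoxc8 also lost it without replicate 1 of U (0.0284), and Hoxb13 fell under the fold limit without replicate 2 of U (log2 0.97). In CLC, Hoxd13, Hoxd9 and Hoxb13 lost theirs without replicate 2 of I or either replicate of U (adjusted p up to 0.0634). Hoxc9 kept its call in the CTCF line without each of the 5 libraries. In CTCFL it lost the call without any replicate of I or replicate 2 of U (adjusted p up to 0.0225) and by edgeR and DESeq2, in LCL without either replicate of I or replicate 1 of U (up to 0.0696), and in CLC without either replicate of I or replicate 2 of U (up to 0.0521), with the replicate block, with the 2 groups alone and by edgeR. Hoxb7 in CTCFL fell under the fold limit without replicate 1 of U (log2 0.93), and Hoxd9 in LCL lost its call without replicate 1 of I (adjusted p = 0.0180).

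The other genes of the pathway were read from fixed lists, against the same background of 6.39% of all tested genes called higher and 6.03% called lower. The lists are short, so 1 or 2 genes make a large share. Of 26 tested neighbours outside the Hox genes, 2 rose and 1 fell with IAA. Calcoco2, a gene for an autophagy receptor near Hoxb13, rose by 1.71 (adjusted p = 2.32e-12) and Ttll6, a tubulin ligase gene beside it, by 1.51 (adjusted p = 2.22e-09), while Skap1 at the other end of Hoxb fell by 1.08 on the log2 scale (adjusted p = 0.00871). Of 9 Hox cofactors 2 fell, among them Meis2 with a log2 fold change of −2.11 (adjusted p = 3.24e-07), a homeodomain protein that binds DNA together with Hox factors. Of 12 tested upstream activators 2 rose, Cdx1 by 1.48 (adjusted p = 1.58e-09) and Cdx2 by 1.90 (adjusted p = 0.00101), caudal factors that activate Hox genes. Of 23 Polycomb genes 0 were called in either direction. By marker lists, 0 of 8 stem cell, 0 of 3 primed epiblast, 0 of 4 mesoderm and 0 of 4 endoderm markers were called, and 1 of 4 neural markers fell (Sox1, log2 −1.27, adjusted p = 2.19e-09). Within lines, markers were also called. In the CTCF line Sox2 (log2 −1.06, adjusted p = 4.14e-06), Esrrb (−1.29, adjusted p = 1.81e-08) and Otx2 (−1.01, adjusted p = 7.60e-06) fell and Mixl1 rose (1.16, adjusted p = 0.00273). Otx2 fell in the CTCFL line too (−1.46, adjusted p = 1.86e-05), Sox1 in the CTCF (−1.43, adjusted p = 2.77e-06) and CLC (−1.80, adjusted p = 0.000124) lines, and Gata6 rose in LCL (1.22, adjusted p = 0.00378) and CLC (1.99, adjusted p = 0.00037). The stem cell markers had a median log2 fold change of −0.46 and summed to 153344 to 272796 in U and 116159 to 204144 in I. The part of these markers in the Hox result was not tested. In bulk RNA, a change in some cells and a smaller change in all cells cannot be told apart.

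The third question was what the transgenes do to the clusters. With endogenous CTCF present (D against U), 1 gene fell in the CTCFL line, 1 rose in the LCL line, 1 rose in the CTCF line and 0 were called in the CLC line. The median log2 fold change of the tested Hox genes was 0.47 in CTCF (22 of 27 above 0) and 0.47 in LCL (15 of 19). It was 0.18 in CLC (13 of 21) and −0.06 in CTCFL (11 of 30). Over all tested genes the medians were −0.02, 0.02, −0.02 and −0.003, respectively. An upward shift was thus not limited to IAA, and both comparisons share the U libraries. In the CTCFL line, Hoxb13 was 141, 126 and 101 in U and 36.5, 42.5 and 33.7 in D, the lowest values of this gene in the series, and fell by 1.68 on the log2 scale (SE 0.25, adjusted p = 2.13e-05). It was the only one of 30 tested genes called, beside 2.14% of all genes called lower and 3.76% called higher. The nearest CTCFL D site lay 36703 bp from the Hoxb13 start. Hoxb13 was 129 and 101 in U and 109, 94.5 and 98.8 in the libraries labelled D of the CTCF line, 107 and 118 against 157 and 123 in LCL, and 86.1 and 104 against 77.5 and 124 in CLC. The groups overlapped in the CTCF and CLC lines, and in LCL the D libraries lay above the U libraries without a call.

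Hoxa7 rose in the LCL line with Dox, from 62.7 and 87.1 in U to 149 and 161 in D (log2 1.06, SE 0.26, adjusted p = 0.00679, 1 of 19 tested, background 1% higher and 0.903% lower). The call was lost without replicate 1 or 2 of LCL D or replicate 1 of LCL U, with adjusted p values up to 0.101. In the CTCF line, Hoxc6 was 2.13 and 2.21 in U and 12.6, 23.4 and 14.1 in the libraries labelled D (log2 2.43, adjusted p = 0.00593, 1 of 27 tested, background 0.216% higher and 0.239% lower). It lost its call without any 1 of the 5 libraries, with adjusted p values up to 0.055, and in the fits by edgeR and DESeq2. The untreated level is about 2 normalized counts, and Hoxc6 lies within the span of Hoxc5. In the CLC line, limma called 0 of 21 tested genes, and edgeR and DESeq2 also called 0 (background 0.352% higher and 0.248% lower). At an unadjusted p under 0.05, 4 of the 21 passed.

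Added to cells without endogenous CTCF (ID against I), the transgenes gave 5 calls. Because I serves as the control here and as the treated group above, the 2 comparisons share those libraries. Hoxb13 fell again in the CTCFL line, from 239, 232 and 240 in I to 88.5 and 57.3 in ID (log2 −1.72, SE 0.28, adjusted p = 4.28e-05). The ID libraries thus lay below the untreated ones of that line. Hoxa7, a trunk gene with a promoter site of CTCF and of CTCFL (Hoxa region 3), rose in the CTCFL line from 84.8, 101 and 138 to 261 and 282 (log2 1.35, SE 0.30, adjusted p = 0.000936). Its call was lost without replicate 1 or 2 of CTCFL ID, with adjusted p values of 0.0105 and 0.0175. These were 2 of 30 tested genes, beside 3.94% called higher and 3.89% lower.

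In the LCL line, 2 genes of the Hoxb cluster moved in opposite directions. Hoxb9 fell from 726 and 772 in I to 264 and 277 in ID (log2 −1.47, SE 0.13, adjusted p = 3.43e-08), below its untreated values of 384 and 446. Hoxb4, an anterior gene also known in blood stem cells, rose from 72.8 and 72.8 to 203 and 202 (log2 1.46, SE 0.32, adjusted p = 0.00098), and without replicate 1 of LCL ID its adjusted p was 0.0112. These were 2 of 19 tested genes, beside 4.04% higher and 4.45% lower. In the CTCF line, Hoxd13 rose from 76.5, 84.1 and 83.0 in I to 184, 210 and 213 in the libraries labelled ID (log2 1.31, SE 0.19, adjusted p = 0.00012, 1 of 27 tested, background 1.76% higher and 3.3% lower), although it was 107 and 66.3 in U. In the CTCFL line it was 150, 130 and 109 in I and 229 and 187 in ID, which was not called (log2 0.69, adjusted p = 0.0271). In the CLC line, 0 of 21 genes were called by limma, edgeR or DESeq2 (background 1.15% higher and 0.795% lower), and 6 had an unadjusted p under 0.05. Hoxb9 passed the adjusted p alone, with 932 and 1010 in I and 603 and 572 in ID (log2 −0.72, adjusted p = 0.00306, background 1.81% lower at this p without a fold limit).

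**Figure D4:**
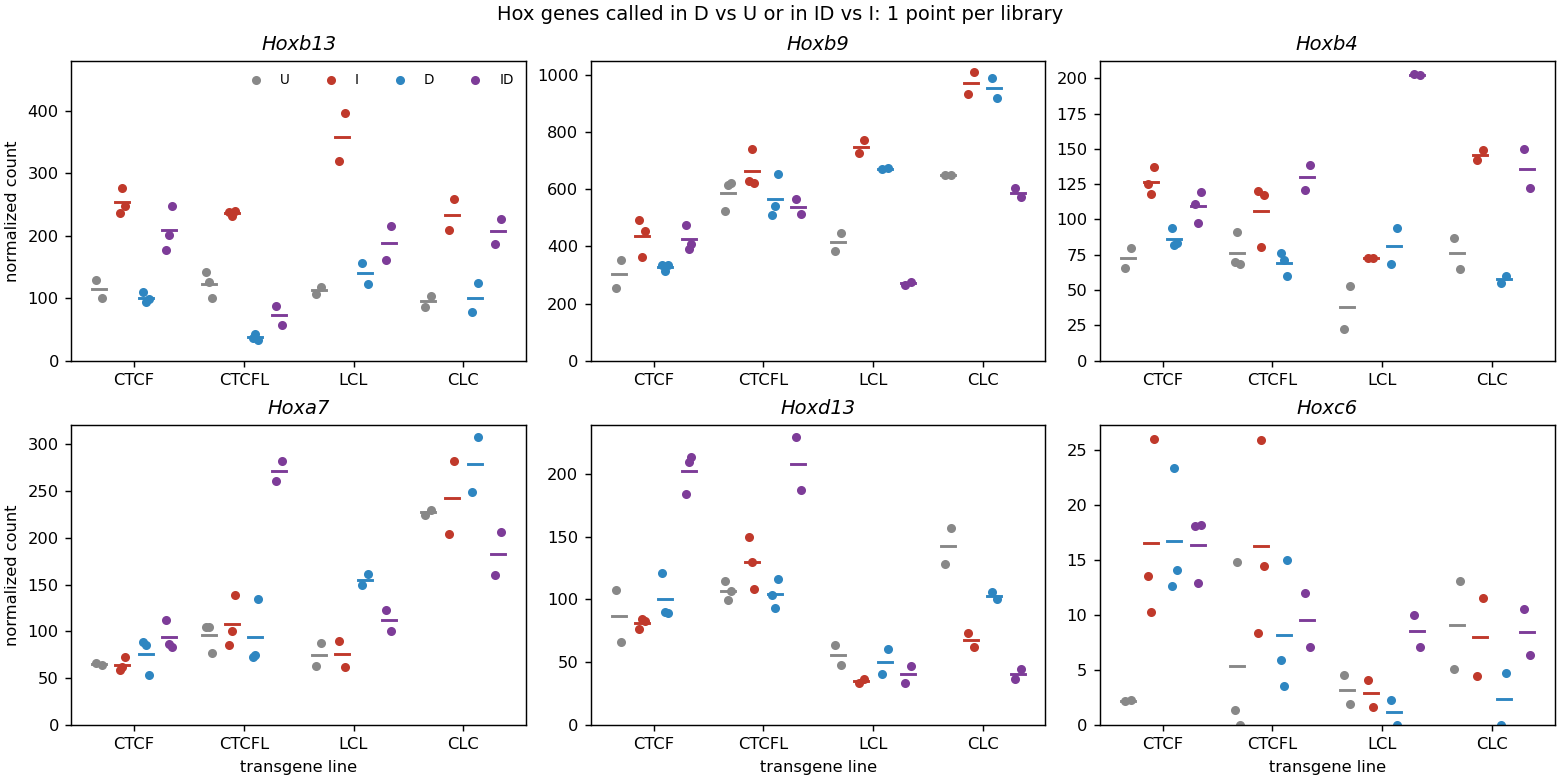
Normalized counts of the 6 Hox genes called after Dox or after Dox with IAA, for all 4 treatments of the 4 lines. Each point is a library and each bar the mean of its group. Hoxb13 is low in D (33.7 to 42.5) and ID (57.3 and 88.5) of the CTCFL line, and Hoxb9 in ID (264 and 277) of the LCL line.

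Genes that rose with IAA can be read against transgenic CTCF from the libraries labelled ID of the CTCF line. Hoxc9 was 26.5, 51.6 and 39.4 there, against 40.7, 53.4 and 67.9 in I and 6.38 and 8.84 in U. Hoxb8 was 18.1, 8.21 and 12.1, against 25.2, 30.7 and 36.9 in I and 10.6 and 7.73 in U. Of the 27 tested genes, 16 were above 0 in ID against I, with a median log2 fold change of 0.07. Hoxd9 was 86.8, 59.8 and 60.5 there, against 43.6, 31.8 and 54.5 in I, and Hoxd1 57.9, 51.6 and 80.2 against 18.4, 53.4 and 48.6. Hoxc13 was 327, 316 and 442 against 328, 291 and 372. Of these genes, Hoxb8 alone had all its ID libraries below all its I libraries, and neither it nor the others were called. In the other lines the median was 0.09 in CTCFL, 0.11 in LCL and −0.39 in CLC, where 5 of 21 were above 0. Of 27 tested neighbours outside the Hox genes, 2 were called lower in ID against I of the CTCF line (Ttll6 and Calcoco2) and 1 higher (Hoxa11os). The background was 3.3% lower and 1.76% higher. In the CTCFL line, Calcoco2 and Halr1 were called lower and Copz2 and Nckap1l higher, 2 of 27 each way (background 3.89% lower and 3.94% higher). The fall of Calcoco2 was thus not limited to the CTCF line. In LCL 0 of 26 were called, and in CLC 1 of 26 was higher (Nckap1l).

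Of the other genes called with IAA, none was called in D against U or in ID against I, and their D and ID libraries are given here by line. Hoxb7 in D was 73.7, 62.7 and 58.6 in CTCF, 82.9, 72.1 and 67.4 in CTCFL, 44.7 and 48.5 in LCL and 60.1 and 41.2 in CLC. Hoxb7 in ID was 150, 111 and 117 in CTCF, 158 and 181 in CTCFL, 98.3 and 80.5 in LCL and 21.8 and 61.1 in CLC. Hoxb7 was low in D and high in ID of the first 3 lines. Hoxc13 in D was 265, 249 and 259 in CTCF, 390, 449 and 438 in CTCFL, 145 and 110 in LCL and 234 and 253 in CLC. Hoxc13 in ID was 327, 316 and 442 in CTCF, 668 and 780 in CTCFL, 230 and 268 in LCL and 439 and 415 in CLC. Hoxc13 was highest in ID of the CTCFL line. Hoxb8 in D was 12.6, 23.4 and 8.69 in CTCF, 45.4, 31.9 and 56.2 in CTCFL, 8.2 and 12.5 in LCL and 21.3 and 37.2 in CLC. Hoxb8 in ID was 18.1, 8.21 and 12.1 in CTCF, 40.4 and 47.2 in CTCFL, 4.71 and 16.9 in LCL and 12.8 and 20.1 in CLC. Hoxb8 showed no separation of D from ID in the CTCFL line.

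Hoxc8 in D was 5.26, 1.06 and 1.09 in CTCF, 6.91, 8.27 and 11.2 in CTCFL, 0 and 2.08 in LCL and 4.84 and 9.5 in CLC. Hoxc8 in ID was 9.64, 11.7 and 40.9 in CTCF, 34.9 and 21.1 in CTCFL, 0.59 and 7.06 in LCL and 5.27 and 7.29 in CLC. Hoxc8 stayed under 12 in every D library. Hoxc9 in D was 20, 17 and 17.4 in CTCF, 41.4, 12.4 and 18.7 in CTCFL, 17.1 and 2.08 in LCL and 35.9 and 24.5 in CLC. Hoxc9 in ID was 26.5, 51.6 and 39.4 in CTCF, 52.4 and 54.3 in CTCFL, 15.9 and 8.47 in LCL and 26.3 and 32.8 in CLC. Hoxc9 varied between the D replicates of CTCFL and of LCL. Hoxc12 in D was 18.9, 22.3 and 9.78 in CTCF, 0, 5.32 and 18.7 in CTCFL, 17.1 and 11.1 in LCL and 40.7 and 49.9 in CLC. Hoxc12 in ID was 21.7, 27 and 21.2 in CTCF, 45.9 and 28.1 in CTCFL, 36.5 and 57.9 in LCL and 100 and 125 in CLC. Hoxc12 was at 0 in 1 D library of the CTCFL line.

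Hoxd1 in D was 27.4, 23.4 and 18.5 in CTCF, 39.5, 52 and 56.2 in CTCFL, 0 and 1.39 in LCL and 0.97 and 6.33 in CLC. Hoxd1 in ID was 57.9, 51.6 and 80.2 in CTCF, 32.8 and 45.2 in CTCFL, 2.94 and 0 in LCL and 7.52 and 4.56 in CLC. Hoxd1 was low in both treatments of LCL and CLC. Hoxd8 in D was 53.7, 51 and 60.8 in CTCF, 46.4, 37.2 and 48.7 in CTCFL, 14.2 and 20.1 in LCL and 33.9 and 32.5 in CLC. Hoxd8 in ID was 110, 73.9 and 68.1 in CTCF, 32.8 and 98.5 in CTCFL, 23.6 and 39.5 in LCL and 23.3 and 36.5 in CLC. Hoxd8 replicates of CTCFL ID were far apart. Hoxd9 in D was 35.8, 19.1 and 26.1 in CTCF, 19.7, 42 and 56.2 in CTCFL, 26.8 and 31.9 in LCL and 63 and 76 in CLC. Hoxd9 in ID was 86.8, 59.8 and 60.5 in CTCF, 87.4 and 68.3 in CTCFL, 45.3 and 45.2 in LCL and 61.7 and 82 in CLC. Hoxd9 in ID was above D in the CTCF, CTCFL and LCL lines, and the 2 groups overlapped in CLC. For comparison, Hoxb7 in the CTCF line was 74.4 and 70.7 in U and 101, 131 and 119 in I. Hoxc13 was 184 and 169 in U and 328, 291 and 372 in I of the CTCF line, and 127 and 120 in U and 264 and 199 in I of the LCL line. In the CTCFL line Hoxc13 was 369, 317 and 359 in U and 369, 526 and 440 in I, where the lowest I library barely passed the highest U library.

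Binding near a start was also counted for the genes that rose with IAA. A CTCF ID site lay within 3 kb of a start of 3 of the 8 called genes (Hoxb8, Hoxc8 and Hoxd8), of 4 of the 16 tested genes that were not called, and of 7 of the 15 that were too low to test. The median distance from a start to the nearest site was 3596 bp, 5156 bp and 3545 bp, respectively.

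The last question was where domain borders fall at the clusters. Hi-C of each condition is labelled as replicates 1 and 2, and the domain list of replicate 1 is named for the caller crane and that of replicate 2 for hicratio, both in bins of 40 kb. Whether the 2 lists come from the same or separate libraries is not stated, and no caller has a replicate, so the spread between replicates is unknown. Hi-C of CLL ID was not analysed here. Domains of the lists leave gaps, and the gap at a cluster is taken as the border. With hicratio, the border at Hoxb lay between 96240001 and 96280000, the bin with the Hoxb9 start, in both untreated lines, in D of all 4 lines and in CTCF ID. It lay 1 bin further, between 96280001 and 96320000, the bin with the starts of Hoxb8 to Hoxb4, in I of both lines and in ID of CTCFL, LCL and CLC. The gap of the crane lists, which is wider (280 kb), moved by 1 bin in the same conditions. The Hoxb border was thus at its untreated place in the 7 conditions with endogenous or transgenic CTCF and 1 bin away in the other 5. For background, 35% of all hicratio gaps of untreated CTCF cells were at the same place in I and 20% had moved by 1 bin. Of the hicratio gaps that had moved by 1 bin in I, 54.8% (331 of 604) were back in CTCF ID and 28.2% (162 of 575) were back in CTCFL ID. Crane gaps were less stable. Of those of untreated CTCF cells, 49.9% were at the same place in D and 19.6% in I, where 23.0% had moved by 1 bin. Of the crane gaps that had moved by 1 bin in I, 46.3% were back in CTCF ID and 27.5% in CTCFL ID.

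The other clusters differed from Hoxb. At Hoxd the hicratio border lay between 74680001 and 74720000 (starts of Hoxd10 to Hoxd4) in U and D, and between 74640001 and 74680000 (starts of Hoxd13 to Hoxd11) in I and in ID of all 4 lines, CTCF included. The crane gap moved likewise, but was already shifted in LCL D. At Hoxc hicratio gave no border in U or D, and one between 102920001 and 102960000 (starts of Hoxc13 to Hoxc11) in CTCF I, CTCFL I and CLC ID. Crane gave a gap at Hoxc in the 2 I conditions alone. At Hoxa the crane gap was the same in all 12 conditions, and the hicratio bin differed between the 2 untreated lines, so no change with treatment can be read there. A shift of 1 bin is the smallest these lists can show.

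**Figure D5:**
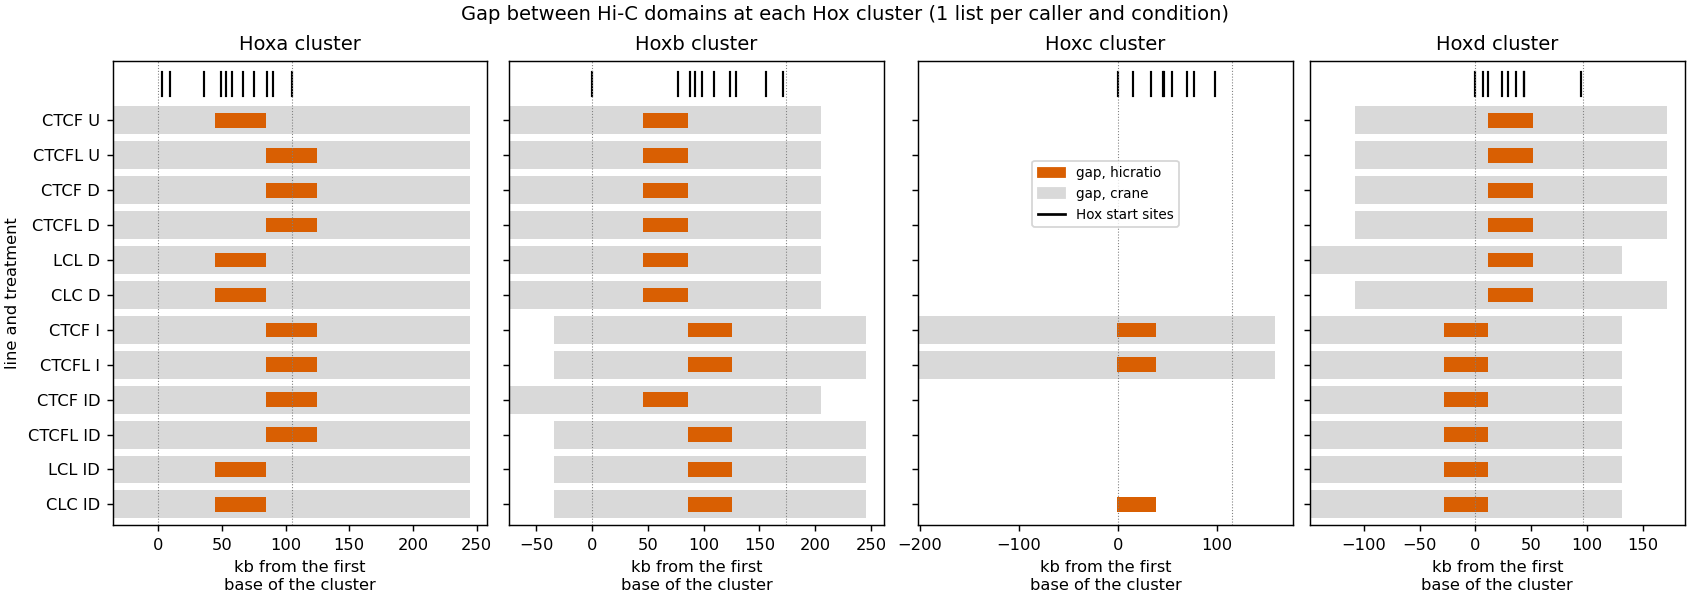
Gap between domains at each cluster in the 12 Hi-C conditions analysed, as distance in kb from the first base of the cluster. Orange bars are the hicratio gap of 40 kb, grey bars the crane gap, black ticks the Hox start sites and dotted lines the ends of the cluster. At Hoxb both gaps shift right in I and in ID of CTCFL, LCL and CLC, and not in CTCF ID.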

How the data were processed

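The authors aligned RNA-seq reads (poly(A), strand-specific libraries) to GRCm38/mm10 with STAR v2.6 after Trim Galore 0.4.4. The deposited signal values are gene counts divided by 1 size factor per library. In 36 of 38 libraries they were whole multiples of 1 step (100% of values up to 500 reads, within 0.1 of a read), and the reads so recovered served edgeR and DESeq2. In replicate 2 of CTCFL I and of CTCFL ID no such step was found, so edgeR and DESeq2 ran without them. The counting program and its strand setting are not given in the sources used here, although HTSeq is among the submitters' processing notes.

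Values were tested as log2(value + 1) with limma 3.58.1 (R 4.3.3, eBayes with trend) in 1 fit per line over its treatments, and IAA also over 4 lines. Genes with a mean under 10 were left out. A call needs a Benjamini-Hochberg adjusted p under 0.01 over all tested genes and a log2 fold change above 1 in size. Nothing in the labels says that replicates were separate cultures, so p-values measure the spread between these libraries. Values per library are printed or plotted for every Hox gene called in any of the 13 comparisons and for the highest per kb in each cluster, except that values of some genes are not reported here although the counts include them. Regions were named where CTCF ID or CTCFL D had a −log10 q of at least 20 in both replicates. Members, lists and tests were chosen with earlier results of these data known. Alternatives were a pseudocount of 5, no minimum, a minimum of 50, TMM factors, 2 groups alone, the replicate block, edgeR 4.0.16, DESeq2 1.42.0 and leaving out each library.

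For ChIP-seq the authors aligned with Bowtie2 and called peaks per replicate with MACS. The deposited −log10 q values are those of MACS, and the fold enrichment and signal of those lists were not compared here. Peaks were merged over replicates, and a site needed support from each replicate (1 bp, chromosomes 1 to 19 and X). The CTCF motif was a matrix of 14 positions re-estimated on all CTCF ID sites, searched on both strands, with the 95th percentile of windows 1000 bp away as threshold. Intervals are exact (Clopper-Pearson) and cover counting error only. Gene positions are those of the annotation of GRCm38, by symbol, for all 39 genes.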

Additional observations from a re-analysis of the deposited data

Results flagged for a closer look

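The effect of Dox differed between the 4 lines for 3 of 23 tested Hox genes (background 24.1%), by a moderated F test of the differences that was added after the data were seen. Among these, Hoxb13 had an adjusted p of 0.000209, with log2 fold changes of −1.68 in CTCFL, −0.17 in CTCF, 0.30 in LCL and 0.05 in CLC. Hoxb9 had an adjusted p of 0.00798, with 0.70 in LCL, 0.56 in CLC, 0.13 in CTCF and −0.06 in CTCFL. Between 1 and 4 genes were called when a library was left out, with 1 left without replicate 2 of CTCF D, either replicate of LCL D or either replicate of CLC U.

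The effect of Dox in cells given IAA (ID against I) differed between lines for 6 of 28 tested Hox genes (background 38.7%), by the same added test. Hoxb9 had an adjusted p of 3.05e-05, with log2 fold changes of −1.47 in LCL, −0.72 in CLC, −0.30 in CTCFL and −0.03 in CTCF. Hoxd13 had an adjusted p of 0.00019, with 1.31 in CTCF, 0.69 in CTCFL, 0.18 in LCL and −0.73 in CLC. Hoxb4 had 0.000312, with 1.46 in LCL, 0.31 in CTCFL, −0.10 in CLC and −0.22 in CTCF. Hoxb13 had 0.000567, with −1.72 in CTCFL, −0.93 in LCL, −0.29 in CTCF and −0.17 in CLC. Hoxa7 had 0.00426, with 1.35 in CTCFL, 0.57 in LCL, 0.54 in CTCF and −0.40 in CLC. Hoxc13 had 0.00985, with 0.71 in CTCFL, 0.12 in CTCF, 0.11 in LCL and −0.43 in CLC. These shares of the Hox genes lie below the background, and each line is 1 clone, so line and clone cannot be told apart.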

How the results depend on the processing

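Of 248 alternatives run on called genes, 205 kept direction and call, as did 214 of 270 fits without a library, and 0 of these 518 reversed. The count of called Hox genes moved as follows. IAA in the CTCF line (7) gave 2 at a minimum mean of 50 and 4 with the 2 groups alone. IAA over 4 lines (8) gave 4 with a pseudocount of 5 and 3 at a minimum of 50, and 7 to 11 without a library. IAA in CTCFL (2) gave 1 with no minimum, a minimum of 50 and edgeR. IAA in LCL (4) gave 2 at a minimum of 50. IAA in CLC (5) gave 2 with no minimum, with the 2 groups alone and with the replicate block. Dox in the CTCF line (1) gave 0 in all alternatives but TMM, block included. Dox in CTCFL (1) gave 2 with the 2 groups alone and 3 by DESeq2. Dox in LCL (1) gave 0 with no minimum and 2 with the block. ID against I in CTCFL (2) gave 1 by edgeR. Without a library the counts ranged from 4 to 5 (CTCF), 1 to 2 (CTCFL), 2 to 5 (LCL) and 1 to 4 (CLC) for IAA, 0 to 0, 1 to 3 and 0 to 2 for Dox in CTCF, CTCFL and LCL, 1 to 2 and 1 to 3 for ID against I in CTCFL and LCL, and 1 to 4 and 4 to 7 for the differences between lines. With group means removed, same-numbered libraries correlated at −0.297 to 0.162. This cannot show whether the numbers carry a pairing. With 2 libraries per group, swapping the numbers changes only the sign, as for the −0.253 of CLC in ID against I. The main fits used no pairing. The block gave 5 for IAA in the CTCF line and 5 in LCL, 8 over 4 lines, and a crossed pairing in CLC (ID against I, added later) gave 0.

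Site counts became 1 for CLC D with no flank, and 0 for CLL D, 2 for LLC D and 3 for LLC ID at a −log10 q of at least 5. The CTCFL share was 20% at an overlap of 66%, beside 32.2% over all CTCF ID sites. The motif share was 24.0% at 25 bp and 16% at 250 bp, where the threshold of the control windows changed with the window. With either replicate alone, sites numbered 21 to 31 (CTCFL D), 2 to 5 (CLC D), 1 to 7 (CLL D), 8 to 20 (CTCF RNase), 2 to 7 (CTCFL RNase) and 4 to 10 (CTCFL mock), RNase kept 8 to 14 (CTCF) and 2 to 2 (CTCFL), and RAD21 sites numbered 5 to 14 (CTCF D), 1 to 4 (CTCF ID), 0 to 17 (CTCFL D), 0 to 4 (CTCFL ID), 3 to 11 (LCL D), 0 to 4 (LCL ID) and 0 to 5 (CLC D). Crane boundaries, 2 or 3 per condition within 40 kb of a cluster, numbered 0 in every condition with no flank and 4 or 5 within 100 kb. For Hoxc6 and Hoxc8, with few reads per library, depth limits the fold changes.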
